A study of Homo sapiens with 12 samples.

Results

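The genes described here are 10 targets of KMT2A fusion proteins, chosen by symbol: HOXA5, HOXA7, HOXA9, HOXA10, MEIS1, PBX3, FLT3, CSPG4, PROM1 and MEF2C. All 10 were among the 58735 genes of the deposited table, and all 10 were among the 13300 genes expressed highly enough to be tested. They were followed in 12 RNA sequencing libraries of SEM, a cell line from B precursor leukaemia that carries a KMT2A-AFF1 fusion. Untreated wild-type (WT) cells, WT cells given 1 µM cytarabine (AraC, a cytidine analogue that stalls DNA replication) for 16 hours, untreated IKZF1 knockout (KO) cells and KO cells given the same AraC dose each had 3 libraries. Ikaros, the product of IKZF1, is a DNA-binding protein needed for lymphocyte development. The submitters' descriptions name the KO libraries with the word homo, which the labels do not spell out. The fusion is shared by all 4 groups. The labels do not say how many knockout clones there were, so genotype and clone cannot be told apart, nor whether replicates were separate cultures, so the p-values reflect a spread among libraries that may be only technical.

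KMT2A is a histone H3 lysine 4 methyltransferase that keeps developmental genes active, the HOXA genes foremost. In the fusion, its chromatin-binding part is joined to AFF1, a partner that recruits the transcription elongation machinery and the H3 lysine 79 methyltransferase DOT1L, and the genes it occupies stay highly expressed. HOXA9 with its DNA-binding cofactors MEIS1 and PBX3 forms the transcriptional core of KMT2A-rearranged leukaemia. FLT3 is a receptor tyrosine kinase of early progenitors, CSPG4 (the NG2 proteoglycan) is a diagnostic surface marker of KMT2A-rearranged leukaemia, PROM1 encodes the stem cell antigen CD133, and MEF2C is a MADS box transcription factor of B cell and myeloid development.

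The levels are FPKM, read counts divided by gene length and library depth as the authors scaled them. For the members that length covers the exons of all annotated transcripts, such as 11755 bases over 56 transcripts for MEF2C. A gene read mainly as a shorter transcript is understated, so levels set side by side between genes depend on the length used. Differences are log2 differences of FPKM + 0.5, tested with limma across all 13300 genes with a Benjamini-Hochberg adjusted threshold of 0.05; "called" means past that threshold. WT AraC replicate 1 held 22733932 reads assigned to genes and the other libraries 16342979 to 16913784. IKZF1 itself stood at 22.1, 22.6 and 22.4 FPKM in untreated WT and at 20.5, 21.5 and 21.3 in untreated KO libraries, a log2 difference of -0.08 (limma adjusted p = 0.12). The transcript total thus does not check the genotype, and the libraries are called KO-labelled. Of the B lineage markers PAX5 and EBF1 were at 69.9 to 112.9 and 27.7 to 47.6 FPKM, but DNTT reached at most 2.515 and BLNK 1.075. MME (CD10), which most KMT2A-rearranged leukaemias lack, reached at most 0.0704. T lineage genes CD2, CD3D, CD3G and CD4 were at 0, although TRAC was at 67.5 to 80.1, and the erythroid genes HBA1, HBA2 and HBB were at 0.

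The 4 HOXA members lie in one cluster on chromosome 7 (GRCh38), all on the minus strand: HOXA5 from 27141052 to 27143668, HOXA7 from 27153716 to 27157936, HOXA9 from 27162435 to 27175180 and HOXA10 from 27170591 to 27180261. As annotated, HOXA9 and HOXA10 overlap. MEIS1 lies on chromosome 2 from 66433452 to 66573869 (plus strand), PBX3 on chromosome 9 from 125747345 to 125967377 (plus strand) and FLT3 on chromosome 13 from 28003274 to 28100592 (minus strand). CSPG4 lies on chromosome 15 from 75674322 to 75712848, PROM1 on chromosome 4 from 15963076 to 16084378 and MEF2C on chromosome 5 from 88717117 to 88904257, all 3 on the minus strand.

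RefSeq promoters (GRCh38, 250 bases before to 50 after the start) were matched for 9 of the 10 genes, all but HOXA5. Of several starts, the one nearest the annotated 5′ end was used. HOXA9 had 1 RefSeq start, at 27165537, well inside the annotated gene, whose 5′ end is at 27175180. The 5-base core of the Ikaros binding motif, GGGAA or its reverse complement TTCCC on the other strand, was present in 6 of these 9 windows, against 65.0% of all 35116 promoters in the table. The MEIS motif TGACAG was in 2 of 9, PBX3 and MEF2C, against 15.8% of all promoters, and the HOX-PBX motif TGATTNAT in 0 of 9, against 2.82%; both strands were searched. Each match is a run of letters, not a binding site. The promoters of HOXA9 (chr7:27165488-27165787) and HOXA10 (chr7:27179812-27180111) are shown because these adjacent genes went in opposite directions with AraC, that of FLT3 (chr13:28100527-28100826) because it is the most expressed member, and that of CSPG4 (chr15:75712799-75713098) because it had the widest differences. All 4 are on the minus strand and are written from 5′ to 3′ with the Ikaros core in capitals.
HOXA9: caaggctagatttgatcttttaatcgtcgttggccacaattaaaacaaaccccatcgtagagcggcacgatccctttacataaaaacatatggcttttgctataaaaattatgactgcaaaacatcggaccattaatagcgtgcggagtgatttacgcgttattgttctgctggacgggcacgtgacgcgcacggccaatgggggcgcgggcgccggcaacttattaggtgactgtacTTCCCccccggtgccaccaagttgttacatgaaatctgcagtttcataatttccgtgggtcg
HOXA10: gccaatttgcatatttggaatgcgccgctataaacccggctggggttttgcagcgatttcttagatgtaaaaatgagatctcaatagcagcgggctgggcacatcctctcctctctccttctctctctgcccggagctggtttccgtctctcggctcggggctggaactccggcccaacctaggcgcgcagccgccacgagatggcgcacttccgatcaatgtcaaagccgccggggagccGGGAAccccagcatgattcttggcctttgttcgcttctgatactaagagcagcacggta
FLT3: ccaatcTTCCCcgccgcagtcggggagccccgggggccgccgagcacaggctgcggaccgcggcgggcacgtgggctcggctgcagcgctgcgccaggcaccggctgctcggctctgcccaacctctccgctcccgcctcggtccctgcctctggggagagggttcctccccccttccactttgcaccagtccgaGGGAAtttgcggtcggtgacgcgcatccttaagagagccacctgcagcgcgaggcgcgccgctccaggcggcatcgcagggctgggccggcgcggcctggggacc
CSPG4: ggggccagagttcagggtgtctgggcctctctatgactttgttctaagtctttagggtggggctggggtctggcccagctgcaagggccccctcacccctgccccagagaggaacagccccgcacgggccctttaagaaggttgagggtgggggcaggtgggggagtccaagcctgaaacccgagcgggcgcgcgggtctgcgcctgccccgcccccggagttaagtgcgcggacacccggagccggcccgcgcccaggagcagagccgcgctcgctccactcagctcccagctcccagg
The core occurs 1 time in each of the HOXA9 and HOXA10 windows and 2 times in that of FLT3. These letters are not in the CSPG4 window. The number of CpG dinucleotides ran from 8 in the MEF2C window to 43 in that of PBX3, against a median of 14 over all promoters.

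In untreated WT cells FLT3 was by far the most expressed of the 10, with 428.7, 409.7 and 416.5 FPKM. Averaged over the 12 libraries it ranked 80 of the 13300 tested genes. PROM1 (79.7 ± 0.50 FPKM, SD, n = 3) and MEF2C (71.6 ± 1.20) came next, then HOXA7 (30.1 ± 0.97), HOXA9 (26.7 ± 0.71), HOXA10 (25.3 ± 0.55), PBX3 (21.2 ± 0.34) and CSPG4 (17.5 ± 0.41). MEIS1 (10.2 ± 0.39) and HOXA5 (5.74 ± 0.59) were the least expressed. No 2 neighbours in this order overlapped between their 3 libraries. The values rest on 136 to 223 reads per library for HOXA5, on 911 to 3207 for HOXA7, HOXA9, HOXA10, MEIS1, PBX3 and CSPG4, on 7531 to 18221 for PROM1 and MEF2C and on 20789 to 31244 for FLT3. The order also depends on the gene lengths. MEIS1, with 1683 to 2575 reads over 10934 bases, stood below HOXA9, with 1109 to 1637 reads over 3029 bases.

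**Figure D1:**
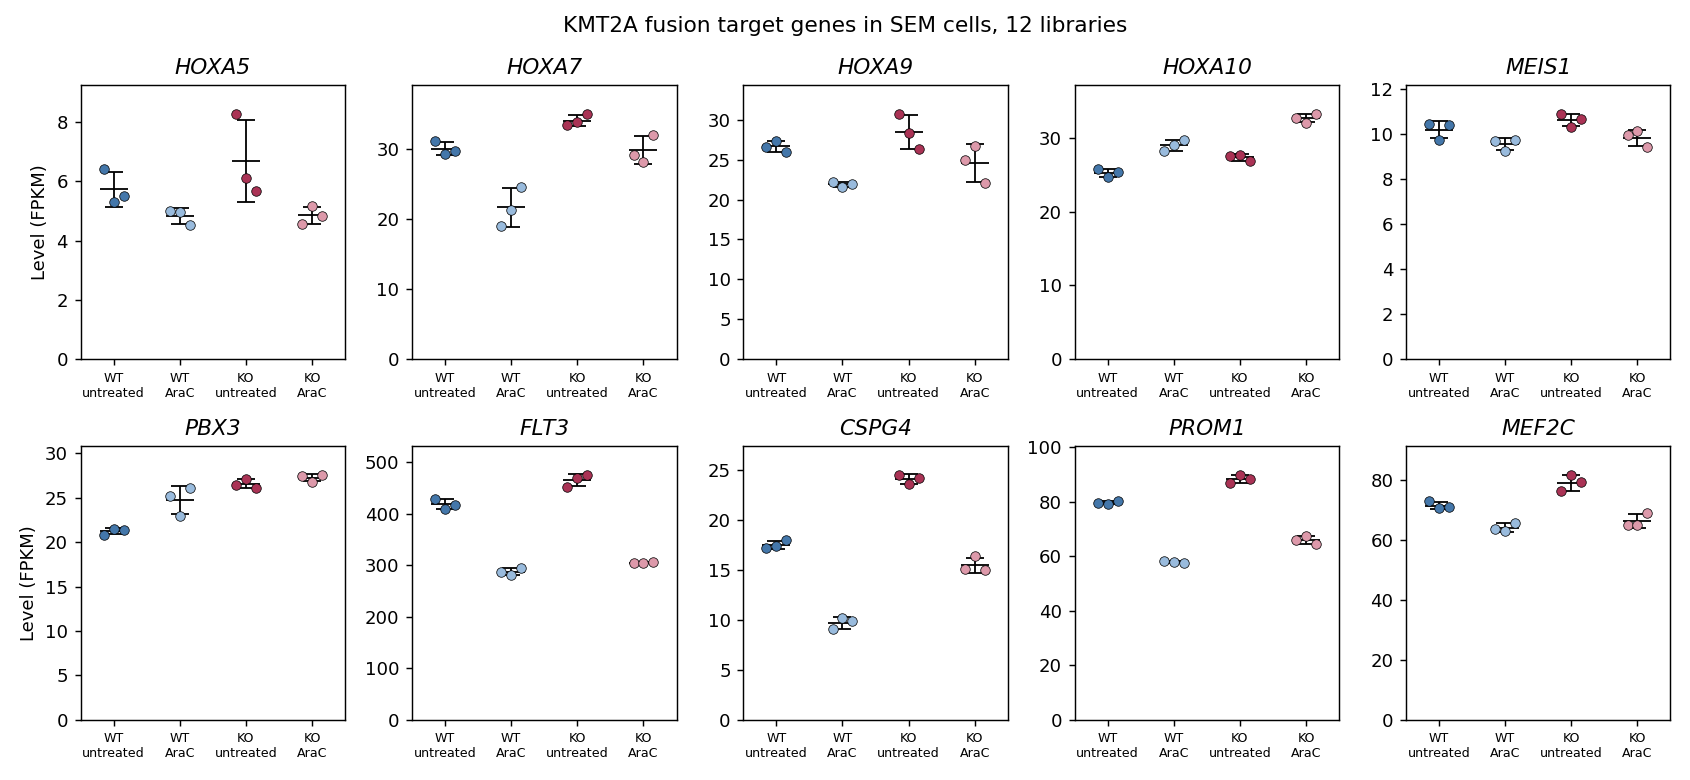
Level in FPKM (vertical axes, each from 0) of the 10 KMT2A fusion target genes in the 4 groups; points are the 3 libraries of a group, the horizontal bar is their mean and the whiskers 1 SD. FLT3 falls from 418 to 288 FPKM in WT with AraC, HOXA10 rises from 25.3 to 29.01, and CSPG4 is higher in KO-labelled than in WT libraries with and without AraC.

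The first question was how the fusion targets stood after 16 hours of AraC in WT cells. CSPG4, FLT3, HOXA7, PROM1, HOXA9 and MEF2C were lower and PBX3 and HOXA10 were higher, while HOXA5 and MEIS1 were not called; the direction of MEF2C turned under TPM and quantile scaling, and it was called higher under the latter. Thus 6 of 10 were called lower, against 25.6% of all tested genes, and 2 of 10 higher, against 24.1%. Among the 8114 tested genes with at least 5 FPKM in at least 3 libraries, the members among them, 35.7% were lower and 24.0% higher. The median log2 difference of the members was -0.25 and that of all tested genes -0.01. In bulk RNA, fewer cells of one kind and less RNA per cell cannot be told apart.

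The question was then put to the KO-labelled cells. There CSPG4, FLT3, PROM1, HOXA5, MEF2C and HOXA9 were lower with AraC and HOXA10 was higher, while HOXA7, MEIS1 and PBX3 were not called. These are 6 of 10 lower, against 24.7% of tested genes, and 1 of 10 higher, against 19.8%; at 5 FPKM or more the shares were 35.1% and 19.3%. The median was -0.23, against -0.03 over all tested genes.

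Both counts depend on how libraries are scaled. Rescaling to TPM moved the median of all tested genes in WT from -0.01 to 0.16, and plain read totals moved it to 0.13; in KO-labelled libraries the medians were 0.09 with either. The members' median moved from -0.25 to -0.07 and -0.10 in WT and from -0.23 to -0.10 and -0.11 in KO-labelled cells. The genes called higher and lower in WT went from 3200 and 3406 to 5537 and 1656 under TPM and to 5131 and 1952 under plain totals. In KO-labelled libraries they went from 2628 and 3279 to 4056 and 1755, and to 3991 and 1901. Under either of these scalings 4 of 10 members were lower and 2 higher in each genotype. CSPG4, FLT3 and PROM1 were called lower, and HOXA10 higher, in both genotypes under every scaling tried.

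**Figure D2:**
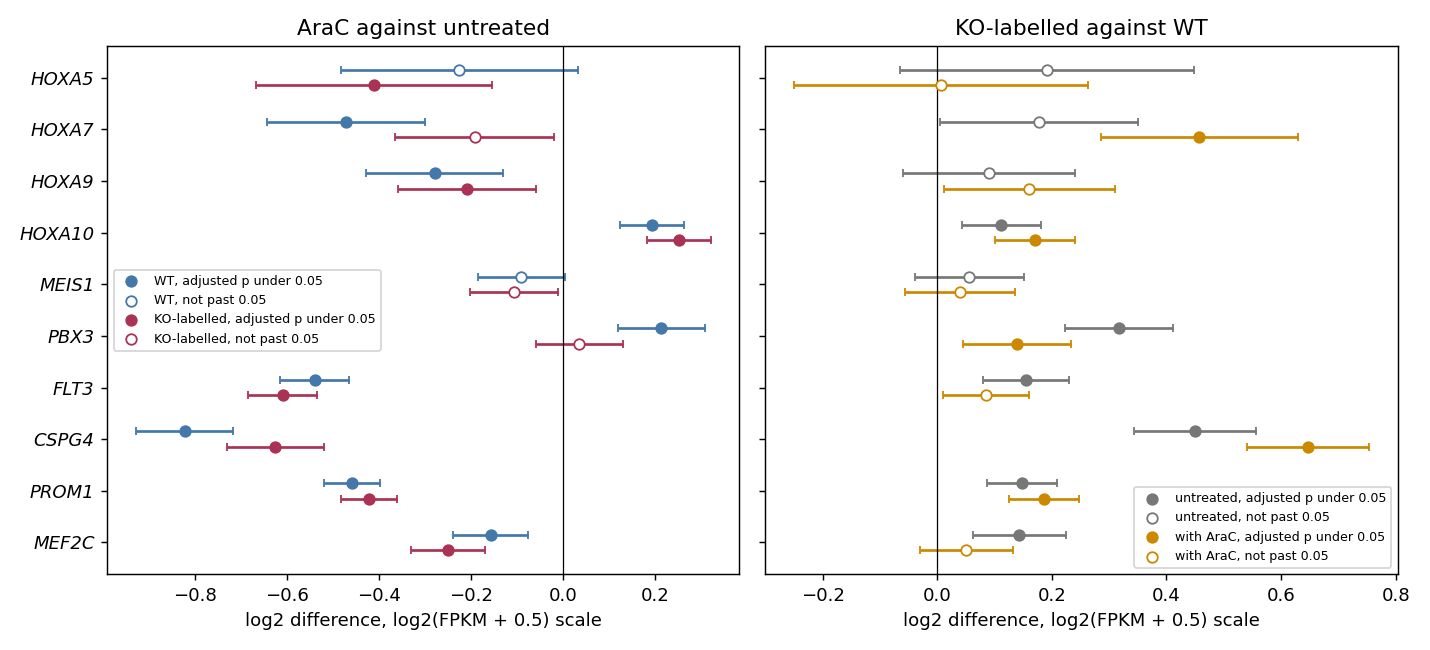
Log2 difference with its 95% interval (horizontal axis) of each member for AraC against untreated (left) and for KO-labelled against WT (right); filled points passed an adjusted p of 0.05 and open points did not. With AraC, HOXA10 and PBX3 lie right of 0 and the other 8 left of it in both genotypes at the deposited scaling (MEIS1 turns under TPM and plain read totals in both, and MEF2C under TPM and quantile scaling in WT); on the right all points lie above 0, where HOXA5, MEIS1, FLT3 and MEF2C turn with AraC under at least one other scaling.

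Among the HOXA homeobox genes, which set positional and progenitor programmes, HOXA9 and HOXA10 moved apart although they adjoin. HOXA9 was at 26.6, 27.4 and 26.0 FPKM in untreated WT and at 22.2, 21.6 and 21.9 with AraC. The KO-labelled libraries held 30.7, 28.4 and 26.4 FPKM without and 25.0, 26.8 and 22.0 with AraC. The WT groups did not overlap, while in KO-labelled cells the highest treated library exceeded the lowest untreated one. The log2 difference was -0.28 ± 0.07 (SE, limma adjusted p = 0.0054) in WT and -0.21 ± 0.07 (limma adjusted p = 0.027) in KO-labelled cells. The WT call was lost under TPM, plain totals and quantile scaling (log2 differences -0.09, -0.13 and -0.17), as was the other. The KO-labelled call was also lost without KO untreated replicate 1 or 2 or without KO AraC replicate 3 (log2 differences -0.15, -0.21 and -0.13), and, at the same difference, with no filter or with only the KO-labelled groups fitted (limma adjusted p = 0.061 and 0.0997).

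HOXA10, which disturbs blood cell maturation when overexpressed in mouse marrow, was at 25.8, 24.7 and 25.3 FPKM in untreated WT and at 28.3, 29.005 and 29.7 with AraC. KO-labelled libraries had 27.5, 27.7 and 26.9 FPKM without and 32.8, 32.1 and 33.2 with AraC. Every treated library of a genotype lay above every untreated one. The log2 difference was 0.19 ± 0.03 in WT and 0.25 ± 0.03 in KO-labelled cells (limma adjusted p = 0.00041 and 7.8e-05), and over all alternatives it ran from 0.18 to 0.38 and from 0.24 to 0.38.

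The ratio of HOXA10 to HOXA9 within a library does not depend on its scaling factor. It was 0.97, 0.90 and 0.98 in untreated WT and 1.28, 1.34 and 1.36 with AraC, and in KO-labelled libraries 0.90, 0.98 and 1.02 without and 1.31, 1.20 and 1.51 with AraC. Treated libraries were higher throughout, by 0.48 log2 in WT and 0.47 in KO-labelled cells. The exact two-sided permutation p was 0.1 for each, the smallest that 3 libraries against 3 allow, and 0.167 adjusted over 20 ratio comparisons of 5 gene pairs, which were chosen after their values were seen. The ratio of HOXA10 to HOXA7 likewise went from 0.84 to 1.35 in WT and from 0.80 to 1.10 in KO-labelled cells as group means.

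HOXA7, another homeodomain transcription factor, was at 31.2, 29.3 and 29.7 FPKM in untreated WT and at 19.0, 21.3 and 24.6 with AraC. The same gene in KO-labelled libraries was at 33.5, 33.8 and 34.95 without and at 29.2, 28.2 and 32.0 with AraC. The groups did not overlap in either genotype, and the 3 treated WT libraries were spread widest. The log2 difference in WT was -0.47 ± 0.08 (limma adjusted p = 0.00046; -0.28 under TPM). In KO-labelled cells it was -0.19 ± 0.08 and was not called (limma adjusted p = 0.068). It passed without WT AraC replicate 1 or 3 or KO AraC replicate 3 (limma adjusted p = 0.027, 0.018 and 0.037), and also with only the KO-labelled groups fitted or a filter at 5 FPKM (0.032 and 0.049).

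HOXA5, the most 3′ of the members in the cluster and the least expressed, was at 6.41, 5.30 and 5.49 FPKM in untreated WT and at 4.9998, 4.96 and 4.52 with AraC. KO-labelled libraries stood at 8.26, 6.13 and 5.67 without and at 4.57, 5.15 and 4.83 with AraC. Treated libraries were lower throughout, and the first untreated KO-labelled library stood highest. The log2 difference was -0.22 ± 0.12 in WT (limma adjusted p = 0.13) and -0.41 ± 0.12 in KO-labelled cells (limma adjusted p = 0.014). The WT value passed without KO untreated replicate 1 (limma adjusted p = 0.031). The KO-labelled call was lost without KO AraC replicate 1 (limma adjusted p = 0.051), under TPM and plain totals, and with only the KO-labelled groups fitted (0.083, 0.071 and 0.052).

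The other HOXA genes were expressed at lower levels. HOXA3 and HOXA6 were at 1.89 to 2.54 and 3.33 to 4.004 FPKM as group means, HOXA4 at 0.52 to 0.91 and HOXA2 at 0.16 to 0.41. On the other side of HOXA10, HOXA11 had 5 reads in all 12 libraries together, all in treated WT, HOXA13 reached at most 0.23 FPKM, and EVX1 had no reads. Of the 4 tested genes among 14 other listed cluster genes in the table, 1 was called lower with AraC in each genotype. The shares of all tested genes were 25.6% in WT and 24.7% in KO-labelled cells. An unlisted transcript between HOXA7 and HOXA9, AC004080.4, was also tested and was higher with AraC in WT (0.87, limma adjusted p = 0.0065). The lower gene was HOXA10-AS, an antisense RNA, with log2 differences of -0.53 (limma adjusted p = 0.0088) in WT and -0.42 (limma adjusted p = 0.031) in KO-labelled cells. HOXA10-AS shares 13.9% of the exonic bases of HOXA9 and 16.4% of those of HOXA10 on the opposite strand, and HOXA-AS3 62.5% of those of HOXA7. AC004080.3, at a mean of 0 FPKM, shares 13.1% of those of HOXA9 and 9.93% of those of HOXA10. It lies on the same strand, so stranded counting would not separate it from either gene. Whether counting used strand, and whether reads over shared bases were assigned or left out, is not given by any source at hand. Reads over these bases may thus be mixed between genes, or missing, which would understate HOXA7, HOXA9 and HOXA10. HOXA-AS3 averaged 1.75 FPKM and HOXA7 28.9.

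**Figure D3:**
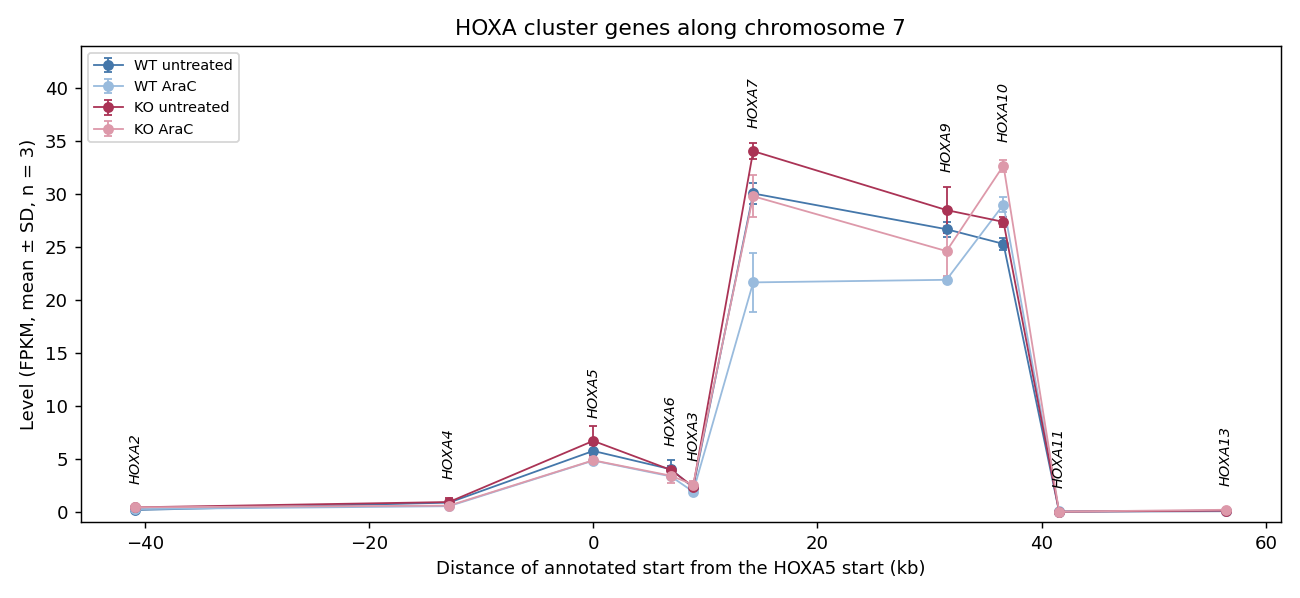
Mean level in FPKM with SD (n = 3 libraries, vertical axis) of 10 HOXA genes by distance of their annotated start from that of HOXA5 in kb (horizontal axis), 1 line per group. HOXA7, HOXA9 and HOXA10 stand between 21.7 and 34.1 FPKM, HOXA2 to HOXA6 below 7 FPKM, and HOXA11 is at or near 0; with AraC the HOXA10 level is above and the HOXA9 level below the untreated one.

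MEIS1, a TALE homeodomain protein that binds DNA with HOXA9, was at 10.4, 9.74 and 10.4 FPKM in untreated WT and 9.66, 9.23 and 9.72 with AraC, and in KO-labelled libraries at 10.9, 10.3 and 10.6 without and 9.95, 10.1 and 9.40 with AraC. Treated libraries were below untreated ones in both genotypes, by 0.09 and 0.11 log2 (95% intervals of the differences -0.19 to 0.01 and -0.20 to -0.01). Neither was called (limma adjusted p = 0.11 and 0.067), and both changed sign under TPM (0.09 and 0.02) and plain totals (0.06 and 0.01).

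PBX3, the partner homeodomain protein, was at 20.8, 21.4 and 21.4 FPKM in untreated WT and at 25.1, 23.0 and 26.1 with AraC. Levels in KO-labelled libraries were 26.5, 27.1 and 26.1 FPKM without and 27.4, 26.8 and 27.5 with AraC. The WT groups were separate and the KO-labelled ones overlapped. The log2 difference was 0.21 ± 0.04 in WT (limma adjusted p = 0.0017; 0.18 to 0.40 over the alternatives) and 0.04 ± 0.04 in KO-labelled cells (95% interval -0.06 to 0.13, limma adjusted p = 0.53). The latter was called under TPM, plain totals and quantile scaling (0.17, 0.16 and 0.13, limma adjusted p = 0.0093, 0.0086 and 0.021). Among all tested genes, 25.6% were lower with AraC in WT and 24.7% in KO-labelled cells. Of 5 tested genes among 9 other TALE cofactors, 3 were lower with AraC in each genotype and none higher, with medians of -0.17 and -0.22. They were PKNOX1 (-0.64 and -0.56), TGIF1 (-0.45 and -0.50) and TGIF2 (-0.17 and -0.22), all with limma adjusted p of 0.013 or less, while PBX2 differed by -0.02 and -0.12 and was not called.

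Of the surface proteins, FLT3 was at 286.9, 282.0 and 294.2 FPKM in WT with AraC, and in KO-labelled libraries at 452.8, 469.5 and 475.2 without and 303.9, 305.0 and 306.7 with AraC. Every treated library lay far below every untreated one of its genotype. The log2 differences were -0.54 ± 0.03 and -0.61 ± 0.03 (limma adjusted p = 5.3e-07 and 3.1e-07). Quantile scaling shrank them to -0.15 and -0.32, both still called. By the smallest distance over 12 centred log2 values among 10433 protein-coding genes, those most like FLT3 were TBC1D14 (0.06), the DNA topoisomerase TOP2A (0.10) and the ubiquitin-conjugating enzyme UBE2C (0.14), where the median distance was 1.118.

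In the FLT3 signalling pathway, 7 of 16 tested genes (of 18 listed) were lower with AraC and 7 higher in WT, and 7 and 2 in KO-labelled cells, with medians of 0.00 and -0.12. Of all tested genes, 25.6% were lower and 24.1% higher in WT, and 24.7% and 19.8% in KO-labelled cells. The adaptor GRB2 (-0.16 and -0.30) and the phosphatase PTPN11 (-0.17 and -0.18) were lower in both genotypes. The ubiquitin ligase CBL and the scaffold GAB2 were higher in WT, by 0.53 and 0.51 (limma adjusted p = 1.5e-05 and 6.2e-06).

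CSPG4 had the widest response in WT. In KO-labelled cells its response was within the errors of that of FLT3 (-0.61 ± 0.03). CSPG4 was at 17.2, 17.3 and 18.0 FPKM in untreated WT and at 9.05, 10.1 and 9.88 with AraC. KO-labelled libraries had it at 24.5, 23.6 and 24.2 without and at 15.1, 16.3 and 14.9 with AraC. All 4 groups were apart from each other. The log2 difference with AraC was -0.82 ± 0.05 in WT and -0.63 ± 0.05 in KO-labelled cells (limma adjusted p = 3.4e-07 and 2.8e-06), and it stayed called in all alternatives (-0.85 to -0.64 and -0.66 to -0.49).

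PROM1 was at 79.5, 79.3 and 80.3 FPKM in untreated WT and at 58.2, 57.9 and 57.5 with AraC. Its KO-labelled libraries were at 86.8, 89.9 and 88.4 without and at 66.0, 67.3 and 64.4 with AraC. Again no group overlapped another. The log2 differences were -0.46 ± 0.03 and -0.42 ± 0.03 (limma adjusted p = 4.1e-07 and 8.7e-07; at the least -0.22 in each under quantile scaling). FGFBP2, which overlaps PROM1 on the same strand over 2.23% of the PROM1 exon bases, went the other way (0.80 and 0.51, both called) at a mean of 3.02 FPKM.

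MEF2C was at 73.0, 70.8 and 71.0 FPKM in untreated WT and at 63.6, 63.1 and 65.8 with AraC. In KO-labelled libraries it was at 76.3, 81.8 and 79.4 without and at 65.2, 65.1 and 69.2 with AraC. Treated libraries lay below untreated ones in both genotypes. The log2 difference was -0.16 ± 0.04 in WT (limma adjusted p = 0.0044), but 0.04 under TPM, 0.09 and called higher under quantile scaling (limma adjusted p = 0.0067) and not called under plain totals; in KO-labelled cells it was -0.25 ± 0.04 (limma adjusted p = 0.00025) and called under every scaling. Of its relatives, MEF2D was lower by 0.63 and 0.53 log2 (limma adjusted p = 7.5e-07 and 3.0e-06), whereas MEF2A was higher in WT (0.24, limma adjusted p = 0.00030) and differed by -0.08 in KO-labelled cells.

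**Figure D4:**
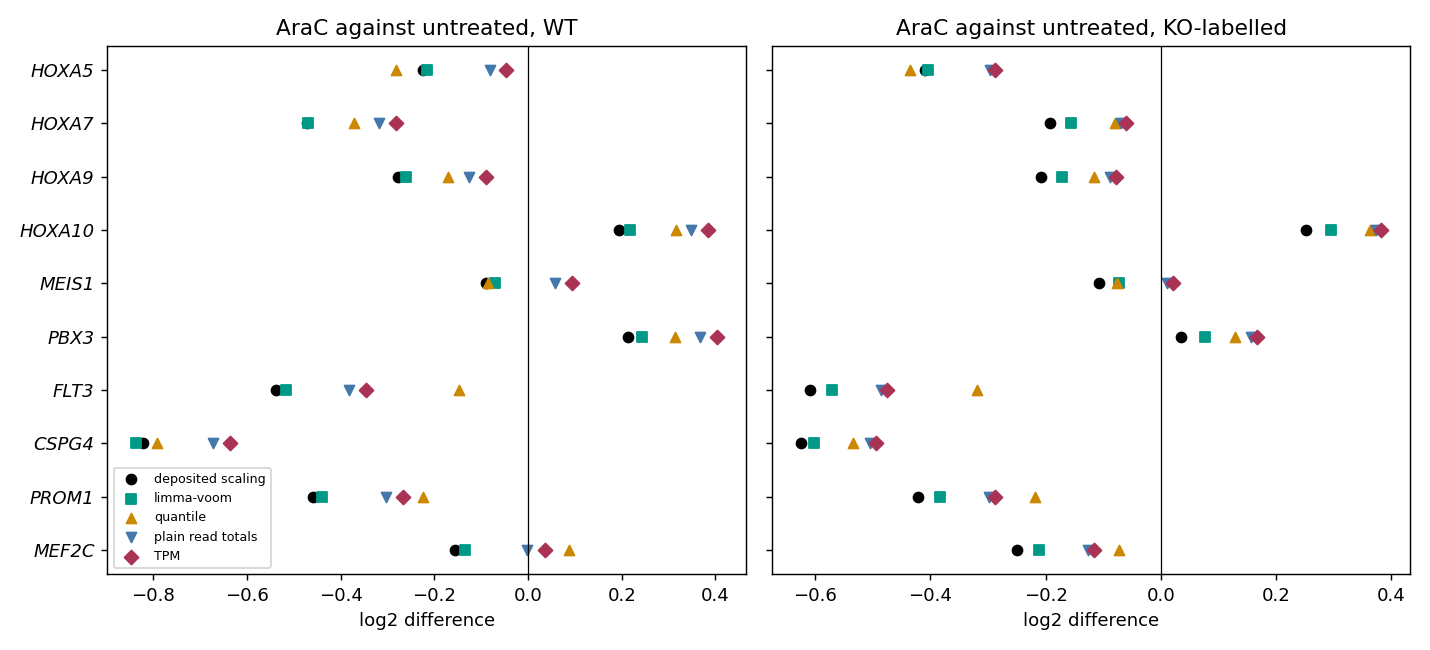
Log2 difference for AraC against untreated (horizontal axis) of each member under the deposited scaling and 4 other scalings, in WT (left) and KO-labelled cells (right). TPM and plain read totals lie right of the deposited values for all 10 genes, and MEIS1 (both genotypes) and MEF2C (WT, under TPM and quantile scaling) cross 0.

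The order of the levels changed with AraC. HOXA10 became the highest HOXA gene in both genotypes and did not overlap the next gene, PBX3 in WT and HOXA7 in KO-labelled cells. In treated WT libraries HOXA9 overlapped HOXA7 and CSPG4 overlapped MEIS1. MEF2C stood above PROM1 in treated WT, at 64.2 ± 1.44 against 57.9 ± 0.36 FPKM, and overlapped it in treated KO-labelled libraries.

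The next comparison set KO-labelled against WT cells without AraC; it shares its untreated libraries with the AraC comparisons above. CSPG4, PBX3, FLT3, PROM1, MEF2C and HOXA10 were higher in the KO-labelled libraries, and none was lower. These are 6 of 10, against 14.9% of tested genes called higher (18.5% at 5 FPKM or more) and 12.6% lower. The median was 0.15, against 0.01 over all tested genes. With AraC in both genotypes, 5 of 10 were higher, HOXA7, HOXA10, PBX3, CSPG4 and PROM1, against 15.4% higher and 14.8% lower among all tested genes, and the median was again 0.15, against 0.00. The genes called higher and lower with AraC went from 2047 and 1971 to 1353 and 3036 under TPM and to 1567 and 2761 under plain totals, and under TPM 3 members were called.

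CSPG4 differed most, by 0.45 ± 0.05 log2 in untreated and 0.65 ± 0.05 in treated cells (limma adjusted p = 4.1e-05 and 3.4e-06), and over the alternatives 0.42 to 0.47 and 0.57 to 0.68. Treated KO-labelled libraries, at 14.9 to 16.3 FPKM, lay closer to untreated WT than treated WT libraries did. PBX3 was next without AraC, at 0.32 ± 0.04 (limma adjusted p = 0.00024); with AraC it was 0.14 ± 0.04 (limma adjusted p = 0.030), a call lost under TPM, plain totals and quantile scaling, with only these groups fitted (0.097) and without WT AraC replicate 2, KO AraC replicate 1 or KO AraC replicate 3 (limma adjusted p = 0.10, 0.079 and 0.072).

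PROM1 differed by 0.15 ± 0.03 and 0.19 ± 0.03 (limma adjusted p = 0.0022 and 0.00047), with both calls lost under quantile scaling and that with AraC under TPM (limma adjusted p = 0.12, 0.096 and 0.060). HOXA10 differed by 0.11 ± 0.03 and 0.17 ± 0.03 (limma adjusted p = 0.022 and 0.0020). Its untreated call was lost without WT untreated replicate 2 or 3 and without KO untreated replicate 1 or 2 (limma adjusted p = 0.085, 0.056, 0.051 and 0.075) and by limma-voom (0.093). HOXA7 differed by 0.18 ± 0.08 without AraC (limma adjusted p = 0.12; 0.039 without WT AraC replicate 3 and 0.014 with only these groups fitted) and by 0.46 ± 0.08 with it (limma adjusted p = 0.0012). MEF2C differed by 0.14 ± 0.04 without AraC (limma adjusted p = 0.013; 0.059 without KO untreated replicate 2) and by 0.05 with it, where the sign turned under TPM, plain totals and quantile scaling.

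The remaining members were not called in either setting. HOXA9 differed by 0.09 (95% interval -0.06 to 0.24) and 0.16 (0.01 to 0.31), the latter called without KO AraC replicate 3 (0.24, limma adjusted p = 0.013). HOXA5 differed by 0.19 (-0.06 to 0.45) and 0.01 (-0.25 to 0.26), the latter turning under TPM and plain totals. MEIS1 differed by 0.06 (-0.04 to 0.15) and 0.04 (-0.06 to 0.13), the latter turning likewise. These intervals leave room for differences of the size seen in PROM1 for HOXA9 and HOXA5, but not for one of the size seen in PBX3 for MEIS1.

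FLT3 was 0.16 ± 0.03 higher without AraC (limma adjusted p = 0.0057; 0.099 and not called under quantile scaling) and 0.09 ± 0.03 with it, not called (limma adjusted p = 0.083; 0.036 and called by limma-voom; -0.06 under quantile scaling). This gene sits on the one member chromosome whose genes were mostly lower in the KO-labelled cells. Of 175 tested protein-coding genes of chromosome 13, 137 were lower and 6 higher without AraC, with a median of -0.51, and 136 and 5 with AraC, with a median of -0.47. For the chromosomes of the other members the medians ran from 0.01 to 0.05.

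The genes next to FLT3 lay nearer to 0 than the chromosome median. Within 1 Mb of the FLT3 start, a window chosen after the values were seen, 8 of 10 other genes were not called without AraC, 2 were lower and the median was -0.09. With AraC 7 were not called, 2 were lower and 1 higher, with a median of -0.06 and a range from -0.43 to 0.13. Outside the window, 135 of 164 were lower, 5 higher and 24 not called without AraC, and the median was -0.53. With AraC 134 were lower, 4 higher and 26 not called, with a median of -0.49. Without AraC, from the centromere side inward, CDK8 at -1.85 Mb differed by -0.66 (limma adjusted p = 0.0012), POLR1D at -0.48 Mb by -0.09 and URAD at -0.11 Mb by -0.06. On the other side the deadenylase subunit PAN3 at 0.04 Mb differed by 0.02 and the proteasome maturation factor POMP at 0.56 Mb by -0.10, and the arginine transporter SLC7A1 at 1.495 Mb by -0.48 (limma adjusted p = 1.4e-06). Not all genes beyond the window were lower. WASF3 at -1.54 Mb (0.79, limma adjusted p = 1.2e-05) and ALOX5AP at 2.61 Mb (0.34, limma adjusted p = 0.012) were higher, and BRCA2 at 4.21 Mb differed by -0.01. Gene copy number was not measured here, and clone and genotype cannot be told apart. FLT3 stood 0.66 log2 above the chromosome median without and 0.56 with AraC; this distance was 0.43 to 0.73 over all alternatives.

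**Figure D5:**
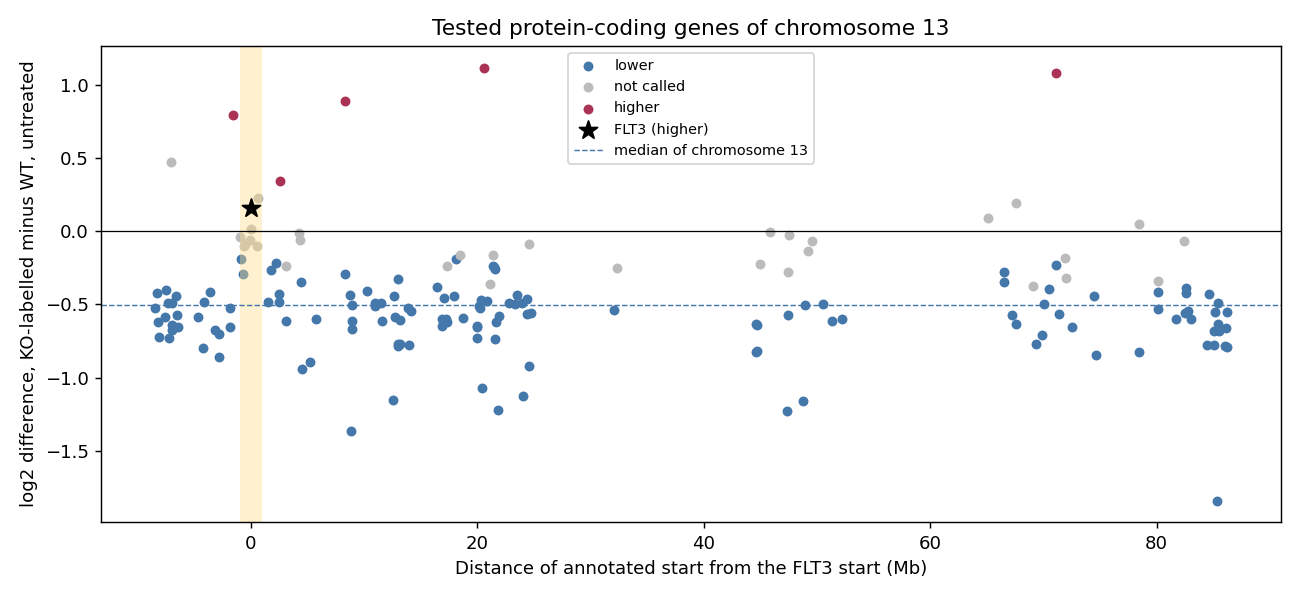
Log2 difference, KO-labelled minus WT without AraC (vertical axis), of the 175 tested protein-coding genes of chromosome 13 by distance of their annotated start from that of FLT3 in Mb (horizontal axis); colours mark the call, the dashed line the median of -0.51 and the shaded band 1 Mb on each side of FLT3. FLT3 (star) lies at 0.16 and the other genes in the band between -0.29 and 0.22, while most genes on both sides lie below 0.

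Neighbours of the other members did not share one direction. Beside CSPG4, SNX33 was lower (-0.36 and -0.28 without and with AraC) and UBE2Q2 higher (0.26 and 0.28) in the KO-labelled libraries. Beside PROM1, TAPT1 was lower (-0.30 and -0.21) and FGFBP2 higher (1.27 and 0.98), and beside MEF2C, TMEM161B was lower (-0.30 and -0.27). MAPKAP1 beside PBX3 was higher (0.18 and 0.21). All 12 of these values were called. On the other side of PBX3, ZBTB43 (0.08 and -0.04), and on that of MEF2C, CETN3 (0.08 and 0.13), were not called. Such neighbours are the nearest tested genes, with gaps from 0 kb (FGFBP2) to 1488 kb (CETN3). Near MEIS1, SPRED2 was higher without AraC (0.25) and differed by -0.08 with it, and ETAA1 differed by -0.04 and 0.00. Of 6 genes flanking the HOXA cluster, 3 were higher without and 4 with AraC and none lower, with medians of 0.25 and 0.23. Among all tested genes 14.9% and 15.4% were higher. The chromobox gene CBX3 went from 70.3 ± 0.80 to 85.0 ± 5.98 FPKM and the sorting nexin SNX10 from 10.2 ± 0.83 to 18.2 ± 1.49 without AraC.

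Whether the AraC response itself differed between genotypes was tested as an interaction. None of the 10 members was called, against 0.887% of tested genes in the higher and 1.8% in the lower direction (118 and 240 genes). At an unadjusted p under 0.05 there were 3: HOXA7 (0.28, 95% interval 0.04 to 0.52), CSPG4 (0.20, 0.05 to 0.35) and PBX3 (-0.18, -0.31 to -0.04), with limma adjusted p of 0.21, 0.16 and 0.15. None was called by limma-voom on recovered reads, and MEF2C was called under TPM and quantile scaling (-0.15 and -0.16, limma adjusted p = 0.047 and 0.023). The 358 genes called became 587 (94 higher, 493 lower) under TPM and 700 (349 higher, 351 lower) by limma-voom. The count was 127 to 205 without any one WT library, KO untreated replicate 2 or 3, or KO AraC replicate 1. The widest interval among the members was that of HOXA5 (-0.55 to 0.18). In the related lists some interactions were called, each at a limma adjusted p of 0.032 or less. CBL, GAB2 and SH2B3 (-0.38, -0.35 and -0.39) were lower of 16 tested FLT3 pathway genes. MEF2A (-0.32) was lower of 6 tested MEF2 and HDAC genes. AFF4 (-0.37) and CCNT1 (-0.35) were lower of 26 fusion complex genes. Of 21 other fusion targets CCNA1 was lower (-0.54) and VLDLR higher (0.58).

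Other KMT2A fusion targets were counted in the same way. Of 21 tested genes (of 28 listed), 12 were lower and 1 higher with AraC in WT, and 13 and 2 in KO-labelled cells, with medians of -0.20 and -0.17; among all tested genes 25.6% were lower and 24.1% higher in WT, and 24.7% and 19.8% in KO-labelled cells. The transcription factor MYB (39.5 ± 1.09 to 24.9 ± 1.53 FPKM in WT), the galectin LGALS1 (113.2 ± 5.04 to 73.8 ± 3.32) and the survival gene BCL2 (28.6 ± 0.78 to 21.7 ± 0.48) were among the lower in WT, while the cell cycle kinase CDK6 differed by -0.02. Between genotypes without AraC 7 were higher and 7 lower, and with AraC 8 and 4. Among all tested genes 14.9% were higher and 12.6% lower without AraC, and 15.4% and 14.8% with it. RUNX2, a transcription factor, rose from 6.27 to 13.5 FPKM and SUPT3H from 4.48 to 11.3 in the untreated KO-labelled libraries, and LMO2, an adaptor of transcription factors, fell from 19.4 to 7.52 in those with AraC.

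The genes of the fusion complex and its cofactors did not move in one direction. Of 26 tested (of 27 listed), 8 were higher and 7 lower with AraC in WT, and 4 and 9 in KO-labelled cells, with medians of 0.00 and -0.03. The shares of all tested genes were 24.1% and 25.6% in WT, and 19.8% and 24.7% in KO-labelled cells. AFF4, a scaffold of the super elongation complex, was higher by 0.68 and 0.31, and these responses differed (interaction -0.37, limma adjusted p = 0.014). PSIP1, which tethers KMT2A complexes to chromatin, was higher by 0.16 and 0.43, and MLLT6 was lower by 0.56 and 0.53 log2. Between genotypes 6 were higher and 5 lower without AraC, and 4 and 8 with it. Here 14.9% and 12.6% of all tested genes were higher and lower without AraC, and 15.4% and 14.8% with it. CDK9, the elongation kinase, was higher (0.31 and 0.26) and ASH2L, a KMT2 complex core subunit, lower (-0.37 and -0.28).

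B lineage markers summed to 614 to 636 FPKM in untreated WT and 411 to 441 with AraC, and to 880 to 884 and 622 to 633 in KO-labelled libraries. Of 9 tested (of 10 listed), 8 were lower with AraC in WT and 6 in KO-labelled cells, and 6 were higher and 1 lower between genotypes in either setting. Of all tested genes, 25.6% and 24.7% were lower with AraC in WT and KO-labelled cells. Between genotypes 14.9% of all tested genes were higher and 12.6% lower without AraC, and 15.4% and 14.8% with it. Myeloid markers summed to 66.7 to 70.4 FPKM in untreated WT, 48.7 to 56.5 with AraC, 44.1 to 45.8 in untreated KO-labelled and 34.6 to 38.2 in treated KO-labelled libraries, with CEBPA at 31.4 to 65.0, ELANE at 0 and MPO at most 0.0368. T lineage markers summed to 67.6 to 80.2 FPKM over all libraries and stromal and endothelial ones to 2.14 to 3.64. Of the 8 listed myeloid markers 4 were tested, and all 4 were lower in the KO-labelled libraries with and without AraC; TRAC, the tested T lineage gene, was called in no comparison. The part of either marker list in the members' differences was not tested.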

How the data were processed

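RNA was measured in 12 SEM libraries, and 1 table was deposited. Its values are FPKM, which the authors scaled between libraries: per the submitters' processing notes fastp, HISAT2 2.0.5 and featureCounts 1.5.0-p3 were used with hg38 and GRCh38. Multiplying by the table's gene lengths returned whole reads for 100% of values (within 0.001), and the deposited scaling followed median-of-ratios factors. The ratio of deposited to median-of-ratios factor, relative to its mean, ran from 0.9967 to 1.0018 over the libraries (SD 0.149%). Of the 58735 identifiers, 58724 had the positions of GENCODE release 29. Depth was 16342979 to 22733932 reads per library, and the number of replicates (3 per group) limits precision.

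Genes with at least 1 FPKM in at least 3 libraries (13300) were tested as log2(FPKM + 0.5) with limma 3.58.1 in R 4.3.3, in one model of 12 libraries (8 residual degrees of freedom, variance trend, two-sided, Benjamini-Hochberg adjustment over all tested genes). This scale understates the change of low genes. The procedure was tested on simulated reads in which few genes were changed and the library sizes were known. That test therefore cannot speak to the choice of scaling where many genes differ. Alternatives were other pseudocounts, filters, scalings, limma-voom on the recovered reads, only the groups compared, a replicate block and leaving out each library.

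The members and lists were chosen with earlier results of these data known. Named were all members, the 4 most expressed and up to 3 called genes with the smallest adjusted p per other list and comparison, nearest tested neighbours, genes of chromosome 13 around FLT3 and the genes most like HOXA9, MEIS1 and FLT3; of these only some are printed. Some genes of the lists are not reported here.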

Additional observations from a re-analysis of the deposited data

How the results depend on the processing

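Over all alternatives, 291 of 308 values of members called higher and 246 of 264 called lower kept their direction and side of the threshold; 17 and 16 lost the call and 2 changed sign. Of 518 values not called, 16 became called and 20 changed sign. With each library left out in turn, 8 to 9 members were called for AraC in WT, 6 to 8 in KO, 4 to 7 for KO against WT untreated, 4 to 5 with AraC and 0 for the interaction, and 5767 to 6820, 5097 to 5810, 2972 to 3930, 3171 to 4086 and 127 to 341 genes. For KO against WT with AraC, 3 members were called under TPM and 3 under quantile scaling; for the interaction 1 under TPM and 1 under quantile scaling. Genes called for the interaction numbered 587 under TPM, 548 under plain totals, 700 by limma-voom and 238 with the replicate block. Signs turned under TPM for HOXA5 (-0.064), MEIS1 (-0.035) and MEF2C (-0.027) in KO against WT with AraC, MEIS1 with AraC in WT (0.094) and KO (0.021), MEF2C with AraC in WT (0.035), and the interactions of HOXA10 (-0.00082) and PROM1 (-0.021). Under plain totals they turned for HOXA5 (-0.043), MEIS1 (-0.012) and MEF2C (-0.0031) in KO against WT with AraC and MEIS1 with AraC in WT (0.058) and KO (0.011). Under quantile scaling they turned for FLT3 (-0.058) and MEF2C (-0.033) in KO against WT with AraC, MEF2C with AraC in WT (0.088) and the MEIS1 interaction (0.010). Leaving out a library turned HOXA5 in KO against WT with AraC (lowest -0.035, highest 0.045) and the MEIS1 interaction (lowest -0.039, highest 0.014). The cause was not tested, beyond the shift of the all-gene median that TPM and plain totals bring. Same-numbered libraries showed little shared deviation (18 pairs, correlations -0.05 to 0.12, 1 over 0.1), and differently numbered ones ran from -0.10 to 0.11. With 3 libraries per group, such correlations cannot settle whether the replicate numbers mark pairs. With the replicate block HOXA7 became called for AraC in KO (limma adjusted p = 0.047), and the block changed no other member's call. HOXA5, with 136 to 223 reads per library, had the widest standard errors.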

Other observations

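The genes most like HOXA9 over the 12 libraries were ZBED5, FAAP100 and GATD1 (distances of centred log2 values 0.16, 0.19 and 0.20, where the median over 10433 genes was 0.75). Those most like MEIS1 were ZNF3, CIAO1 and TTC5 (0.12, 0.14 and 0.14, median 0.61).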
